A study of Mus musculus with 6 samples.

Results

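The HoxA cluster on mouse chromosome 6 was followed through 9 of its transcribed genes, the protein-coding Hoxa2, Hoxa3, Hoxa4, Hoxa5, Hoxa6, Hoxa7 and Hoxa9 and the long noncoding RNAs Halr1 and Hotairm1. These genes were chosen by name and not by a threshold on a value, but with earlier results of these data known. They are 9 of the 20631 genes listed in each sample's table. For each gene the values of its RefSeq transcripts were added up, which joined 2 transcripts for Hoxa9 and left 1 transcript for each other gene.

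Neuromesodermal progenitors (NMPs), caudal epiblast cells whose descendants form spinal cord as well as presomitic mesoderm, were derived in culture from mouse embryonic stem cells, whose strain the labels give as 129 R1 and the methods as C57BL/6, by bFGF, to which the WNT agonist CHIR99021 was added on the last day. All groups shared this derivation, after which bFGF and CHIR99021 were withdrawn for a 2 h treatment. The groups were a DMSO control, 25 nM retinoic acid (RA) and 1 µM RA, with 2 samples each. The methods describe the duplicates as separate culture dishes and call them technical replicates, so p-values measured the spread between dishes of 1 derivation and not between independent derivations. Ribosomal RNA-depleted total RNA was sequenced, and the samples held between 31753556 and 42029348 estimated counts in all. In bulk RNA, more cells that transcribe a gene and more RNA per cell cannot be told apart.

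Hox genes encode homeodomain transcription factors that give cells their position along the head-to-tail axis. They lie in clusters in which the order of the genes matches the order in which they are switched on, from the 3' end to the 5' end, and the 3' genes are known to respond first to RA. RA acts through nuclear receptors that bind paired half-sites in DNA, and known RA response elements of Hox clusters lie near the 3' genes. In the trunk, Hox genes set the identity of the vertebrae and of the spinal cord that descend from NMPs.

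The mapped coordinates were those of mm10. At the 3' side, Halr1, a noncoding RNA also known as Haunt, lay on the plus strand at chr6:52102949-52113684 with 3 exons. Hotairm1, a noncoding RNA of the 3' end of the cluster known from myeloid cells treated with RA, lay on the plus strand at chr6:52158524-52162020 with 2 exons. All 7 protein-coding members lay on the minus strand. Ordered by their lower coordinates, they were Hoxa2 (chr6:52162417-52164831), Hoxa3 (chr6:52169062-52213067), Hoxa4 (chr6:52189687-52191703), Hoxa5 (chr6:52201754-52204587), Hoxa6 (chr6:52206365-52208624), Hoxa7 (chr6:52215624-52218573) and Hoxa9 (chr6:52223097-52227370). Hoxa3 had 5 exons and the others 2 each. The 44006 bases of Hoxa3 ran across Hoxa4, Hoxa5 and Hoxa6, with which it shared 0 exon bases.

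RefSeq start-site regions (GRCm38.p6, 250 bases before to 50 bases after the start) were matched for 7 of the 9 members. Hotairm1 and Hoxa4 had no matched region and were not searched. Those of Halr1, Hoxa2 and Hoxa5, which rose at both doses, and that of Hoxa3, which did not pass the test, are shown 5' to 3' on the strand of the gene, so that the regions can be compared. Capitals mark matches to TGATNNAT, a motif of PBX-HOX complexes, to TGACAG, the motif of MEIS cofactors, and to the half-site of RA receptors. The half-site was taken as AGGTCA or, with a T at the third base, as AGTTCA, and likewise with a G in front as GGGTCA or, again with the T, as GGTTCA. Each motif was searched on both strands.
Halr1, chr6:52102699-52102998, plus strand: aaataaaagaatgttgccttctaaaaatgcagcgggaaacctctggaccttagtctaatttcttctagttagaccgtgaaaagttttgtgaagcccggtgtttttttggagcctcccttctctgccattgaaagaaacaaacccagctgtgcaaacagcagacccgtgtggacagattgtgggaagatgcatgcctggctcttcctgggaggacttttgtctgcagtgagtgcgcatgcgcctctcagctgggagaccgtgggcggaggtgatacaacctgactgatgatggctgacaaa
Hoxa2, chr6:52164782-52165081, minus strand: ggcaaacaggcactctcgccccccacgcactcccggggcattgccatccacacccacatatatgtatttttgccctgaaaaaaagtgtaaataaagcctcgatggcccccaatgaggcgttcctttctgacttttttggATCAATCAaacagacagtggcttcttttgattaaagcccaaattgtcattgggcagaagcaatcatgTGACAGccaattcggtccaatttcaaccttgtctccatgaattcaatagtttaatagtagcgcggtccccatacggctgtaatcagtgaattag
Hoxa3, chr6:52213018-52213317, minus strand: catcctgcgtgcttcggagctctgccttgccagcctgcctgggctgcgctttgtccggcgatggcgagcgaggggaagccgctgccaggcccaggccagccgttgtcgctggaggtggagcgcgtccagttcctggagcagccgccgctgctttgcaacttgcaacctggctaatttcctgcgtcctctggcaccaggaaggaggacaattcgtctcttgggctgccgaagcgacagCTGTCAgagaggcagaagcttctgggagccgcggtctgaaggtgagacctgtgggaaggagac
Hoxa5, chr6:52204538-52204837, minus strand: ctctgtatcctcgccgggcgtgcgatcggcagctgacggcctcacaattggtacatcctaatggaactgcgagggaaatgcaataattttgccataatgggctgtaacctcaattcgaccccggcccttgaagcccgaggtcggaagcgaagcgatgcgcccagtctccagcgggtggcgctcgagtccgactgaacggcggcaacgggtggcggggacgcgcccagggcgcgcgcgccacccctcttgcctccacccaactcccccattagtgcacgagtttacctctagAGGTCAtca

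No direct repeat of half-sites with a spacing of 1, 2 or 5 bases (DR1, DR2, DR5) was found in any of the 7 regions. Such repeats were rare in these windows throughout the genome, at 0.222%, 0.268% and 0.0974% of 32851 start-site regions, so that these letters would seldom be seen in windows of this kind. A single half-site, which 43.7% of all regions hold, was found in Hoxa5, from 42 to 47 bases after the start, and in Hoxa7 and Hoxa9. Hoxa2 held the PBX-HOX motif at -111 to -104 from the start, a match found in 8.85% of all regions, and the MEIS motif at -44 to -39, found in 19.2%. Hoxa3 held the MEIS motif at -13 to -8. The start regions of Hoxa5, Hoxa6 and Hoxa3 held 29, 26 and 20 CpG dinucleotides, and those of Halr1, Hoxa2, Hoxa7 and Hoxa9 held 8, 9, 9 and 4, beside a median of 7 over all regions. Hoxa5 with 29 and Hoxa2 with 9 both rose, and a link between CpG number and the RA response was not tested.

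In control NMPs the 9 members were transcribed at a low level, and most of their summed signal per length came from 1 noncoding RNA. Hotairm1 had 2.45 ± 0.554 RPKM in DMSO (SD, n = 2), where RPKM is the number of reads scaled by transcript length and by the mapped reads of the sample, and it made up 78.5% of the summed RPKM of the 9 members. Hoxa2 followed with 0.299 ± 0.0669 RPKM, and its samples did not overlap those of Hotairm1. Halr1 had 0.147 ± 0.0880, Hoxa5 0.0884 ± 0.0359 and Hoxa3 0.0817 ± 0.0291 RPKM, and these neighbours in the order overlapped. Hoxa7, Hoxa9, Hoxa4 and Hoxa6 stood at or under 0.0270 RPKM, with 5, 6, 1 and 0 estimated counts over both control samples. The Hotairm1 transcript is 253 bases long and that of Hoxa2 is 1775 bases long, so that mean control counts of 29.5 and 24.5 gave quite different levels per length.

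RA raised 4 members at both doses, the 2 noncoding RNAs at the 3' side of the cluster and 2 protein-coding genes. Halr1, Hotairm1, Hoxa2 and Hoxa5 were called higher at each of the 2 doses with an adjusted p under 0.1, by the edgeR likelihood ratio test with Benjamini-Hochberg adjustment over the 15143 genes tested. Of the 9 members 5 passed the filter on low counts and were tested, and 0 were called lower. Over all genes tested, 4.5% were called higher at 25 nM and 8.54% at 1 µM. Of the 15143 genes, 538 were called lower at 25 nM and 1690 at 1 µM. With shares of this size, 0 called lower among 5 members is not a result about them. The median log2 fold change of the 5 tested members was 2.78 at 25 nM and 2.77 at 1 µM, beside -0.00051 and 0.0013 over all genes tested. Halr1, Hoxa5 and Hoxa3, with mean DMSO counts of 4, 8 and 9.5, passed the filter only because their RA samples were counted too. Members that rose were thus more readily tested, so the share called and the median are no test of the members as a set. The 2 RA groups shared their DMSO controls, so that the values at the 2 doses are not independent.

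**Figure D1:**
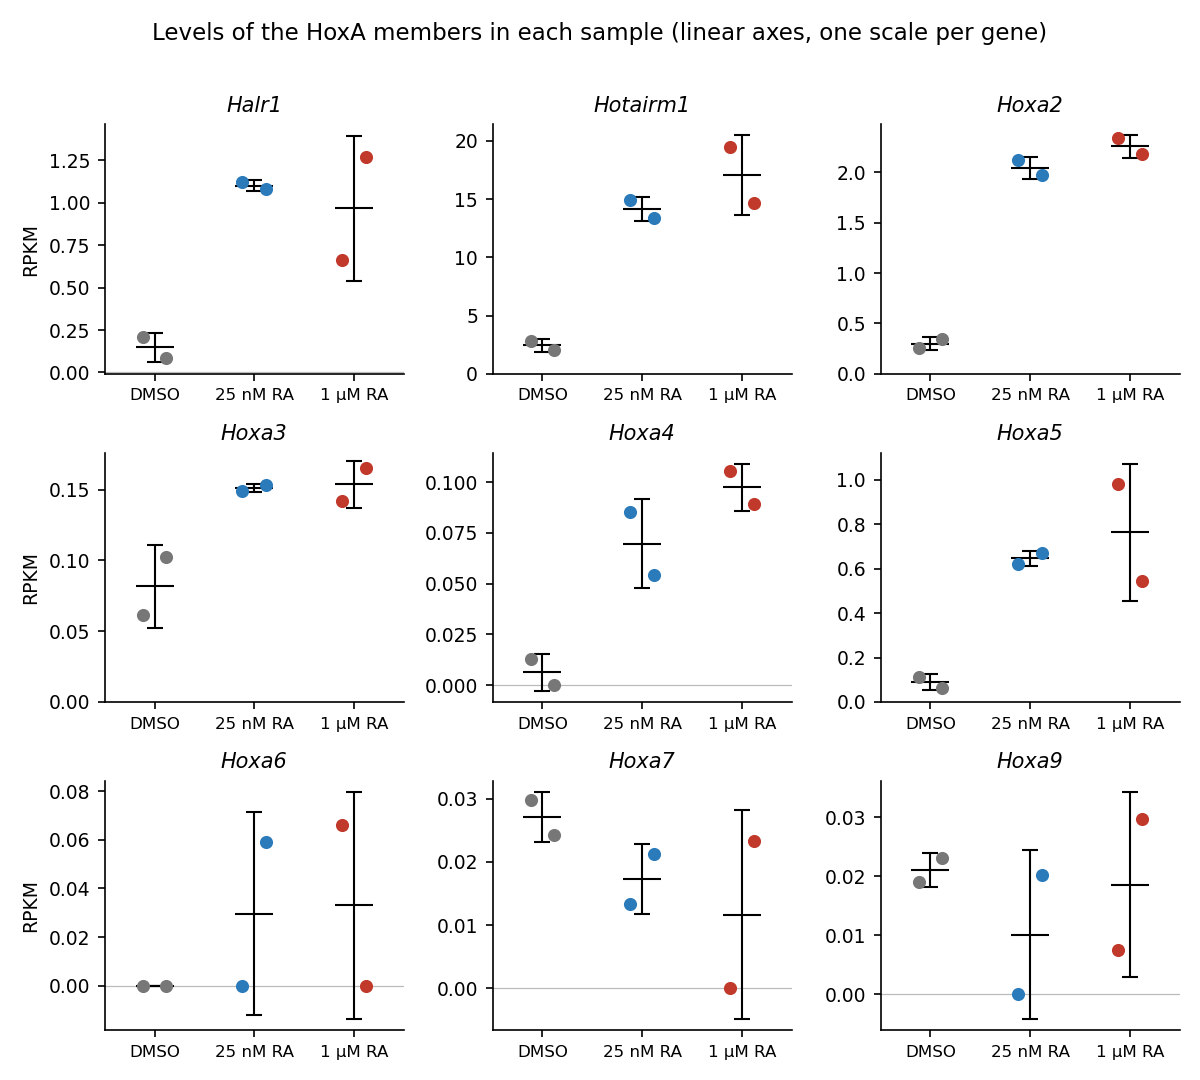
RPKM of each member (vertical axis, linear, with its own scale in each panel) in the 2 samples of each group (points), with the group mean and SD (bars). In the panels of Halr1, Hotairm1, Hoxa2, Hoxa3, Hoxa4 and Hoxa5 all 4 RA samples lie above both DMSO samples; Hoxa6, Hoxa7 and Hoxa9 lie at or below 0.0659 RPKM in every sample.

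Hotairm1 was the member with the highest level in all 6 samples. The DMSO samples had 2.84 and 2.06 RPKM, the 25 nM samples 14.9 and 13.4 RPKM and the 1 µM samples 19.5 and 14.7 RPKM, from estimated counts of 37 and 22, 145 and 164, and 214 and 163. The RA samples all lay far above the controls, and the 2 RA groups overlapped. The fit gave a log2 fold change of 2.50 ± 0.23 (SE) at 25 nM RA, which is 5.65-fold (adjusted p = 1.84e-30, edgeR). At 1 µM RA it was 2.77 ± 0.23, which is 6.82-fold (adjusted p = 7.17e-40, edgeR).

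Halr1, which is known from embryonic stem cells as a regulator of HoxA activation, was nearly silent in the control. The DMSO samples had 0.210 and 0.0850 RPKM (6 and 2 counts), the 25 nM samples 1.12 and 1.08 RPKM (24 and 29 counts) and the 1 µM samples 0.663 and 1.27 RPKM (16 and 31 counts). All RA samples lay above the controls, and the 1 µM samples lay on either side of the 25 nM samples. The fit gave a log2 fold change of 2.80 ± 0.57 at 25 nM RA, or 6.96-fold (adjusted p = 1.32e-07, edgeR), and 2.61 ± 0.57 at 1 µM RA, or 6.11-fold (adjusted p = 1.44e-06, edgeR). DESeq2 gave no adjusted p for Halr1 at 1 µM RA.

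Hoxa2, the most 3' of the protein-coding members, is known for the identity of the hindbrain and of the second branchial arch. Its levels were 0.252 and 0.346 RPKM in the controls (23 and 26 counts), 2.12 and 1.97 RPKM at 25 nM (145 and 169 counts) and 2.34 and 2.18 RPKM at 1 µM (180 and 170 counts). The duplicates lay close together, and each dose stood apart from the control. The fit gave a log2 fold change of 2.78 ± 0.23 at 25 nM RA, or 6.88-fold (adjusted p = 3.79e-44, edgeR), and 2.92 ± 0.23 at 1 µM RA, or 7.59-fold (adjusted p = 2.93e-51, edgeR). Of the 5 members tested, Hoxa2 had the smallest adjusted p at both doses. Its start region, printed above, was the one with both the PBX-HOX and the MEIS match.

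Hoxa5, which is known for the lung and for the vertebrae at the border of neck and thorax, rose by a similar factor from a lower level. Its levels were 0.114 and 0.0630 RPKM in the controls (11 and 5 counts), 0.623 and 0.672 RPKM at 25 nM (45 and 61 counts) and 0.982 and 0.545 RPKM at 1 µM (80 and 45 counts). The controls lay below every RA sample, while the 1 µM samples differed from each other by more than the 25 nM samples. The fit gave a log2 fold change of 2.82 ± 0.43 at 25 nM RA, or 7.05-fold (adjusted p = 6.73e-12, edgeR), and 3.05 ± 0.43 at 1 µM RA, or 8.27-fold (adjusted p = 7.28e-15, edgeR).

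The 95% intervals of these 4 fold changes overlapped at each dose. On the log2 scale they ran at 25 nM RA from 1.69 to 3.91 for Halr1, 2.05 to 2.95 for Hotairm1, 2.33 to 3.23 for Hoxa2 and 1.97 to 3.66 for Hoxa5. In the same order they ran from 1.49 to 3.73, 2.32 to 3.22, 2.48 to 3.37 and 2.21 to 3.88 for the higher dose. The differences between members were not themselves tested.

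Hoxa3, which is known for the organs of the third and the fourth branchial arches such as the thymus, has its 3' end between Hoxa2 and Hoxa4 and its start site beyond Hoxa6, and it was not called. Its levels were 0.0611 and 0.102 RPKM in the controls, 0.149 and 0.153 RPKM at 25 nM and 0.142 and 0.165 RPKM at 1 µM. All RA samples lay above the controls, although the step was small. The fit gave a log2 fold change of 0.94 ± 0.42 at 25 nM RA (95% interval 0.11 to 1.76, adjusted p = 0.202, edgeR) and 0.92 ± 0.42 at 1 µM RA (0.10 to 1.75, adjusted p = 0.115, edgeR). Without DMSO replicate 2 the value at 1 µM RA became 1.31, and without DMSO replicate 1 it became 0.56, so its size depended on single samples.

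The reads of Hoxa3 were divided with an antisense gene. The noncoding Hoxaas2 lies on the plus strand at chr6:52165674-52169451 and shares 390 exon bases with the 3' end of Hoxa3. Hoxa3 had estimated counts of 8 and 11 in DMSO, 14.6 and 18.8 at 25 nM and 15.7 and 18.5 at 1 µM, and Hoxaas2 had 3 and 2, 25.4 and 17.2, and 19.3 and 11.5. Neither gene had whole counts in the 4 RA samples, but their sum was whole in all 6 samples within a tolerance of 0.001, at 11 and 13, 40 and 36, and 35 and 30. The libraries came from a stranded kit, and the strand setting of the counting is not given in the sources used here.

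Because the estimation placed these reads on either strand, how much of the rise belonged to Hoxa3 and how much to Hoxaas2 cannot be told apart from these counts. Fitted alone, Hoxaas2 rose by 3.12 ± 0.70 on the log2 scale at 25 nM RA (adjusted p = 7.64e-07, edgeR) and by 2.67 ± 0.71 at 1 µM RA (adjusted p = 1.09e-04, edgeR). With both genes summed to 1 row, an alternative chosen after the data were seen, the fit gave 1.76 ± 0.35 at 25 nM RA on the log2 scale (adjusted p = 4.27e-06, edgeR) and 1.52 ± 0.36 at 1 µM RA (adjusted p = 1.42e-04, edgeR). The pair thus rose at both doses while Hoxa3 alone did not pass the test. A second antisense gene, Hoxaas3, shares 76 exon bases with Hoxa3, and it had between 1 and 6 counts in every sample.

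**Figure D2:**
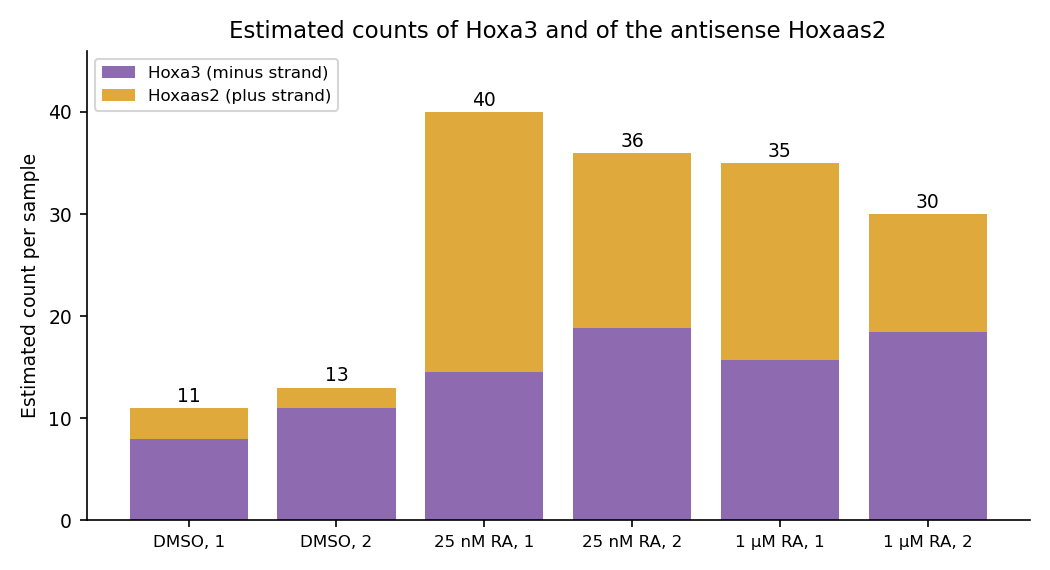
Estimated counts (vertical axis, from 0) of Hoxa3 and of the antisense Hoxaas2, stacked, in each of the 6 samples, with their sum written above each bar. The sum is 11 and 13 in DMSO and between 30 and 40 in the RA samples, and the Hoxaas2 share is larger in the RA samples than in the controls.

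Hoxa4, known for the identity of the neck vertebrae, did not pass the filter on low counts. It had 1 and 0 counts in DMSO, 5 and 4 at 25 nM and 7 and 6 at 1 µM, or 0.0127 and 0, 0.0851 and 0.0541, and 0.106 and 0.0893 RPKM. Each RA sample held more counts than both controls together. The 9 and 13 counts with RA against 1 count in DMSO gave ratios, scaled for library size, of 9.70 (exact 95% interval 1.34 to 425.2) and 13.9 (2.09 to 590.3), which cover counting error only. With no filter, the fit gave a log2 fold change of 2.98 ± 1.53 at 25 nM RA (adjusted p = 0.0946, edgeR) and of 3.48 ± 1.5 at 1 µM RA (adjusted p = 0.00579, edgeR).

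The 5' members Hoxa6, Hoxa7 and Hoxa9, known for the thoracic and more caudal skeleton and, for Hoxa9, for blood progenitors, were near the limit of detection. Hoxa6 had 0 counts in both controls and 0, 2, 2 and 0 in the RA samples, so that no fold can be given. Hoxa7 had 3 and 2 counts in DMSO, 1 and 2 at 25 nM and 0 and 2 at 1 µM. Hoxa9 had 3 and 3 counts in DMSO, 0 and 3 at 25 nM and 1 and 4 at 1 µM. No direction can be read from these counts. The scaled ratios to DMSO were 0.647 (exact 95% interval 0.10 to 3.32) and 0.427 (0.0407 to 2.61) for Hoxa7 and 0.539 (0.0872 to 2.52) and 0.890 (0.215 to 3.50) for Hoxa9 at the 2 doses. A rise of the size seen for Hoxa2 lies above each of these intervals, which hold counting error only. The depth allows up to 3 counts where 0 were found, which is 0.0708 to 0.0943 CPM, counts scaled to the library size, in these samples.

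Along the cluster the response had no single slope. The members called higher were Halr1, Hotairm1, Hoxa2 and Hoxa5, with Hoxa3, which spans Hoxa5, at a smaller value, Hoxa4 at a high ratio of few counts, and Hoxa7 and Hoxa9 with ratios below 1 whose intervals hold 1. At the far 5' end of the cluster, 5 genes had few counts (Hoxa10, Hoxa11, Hoxa11os, Hoxa13 and Hottip), and 0 of the 5 were tested. Their summed counts were 5 to 6 in the DMSO and 25 nM samples and 8 to 10 with 1 µM RA. This sum joined genes with unlike values. Hoxa10 had means of 0, 0.0324 and 0.0649 RPKM in DMSO, at 25 nM and at 1 µM, from at most 8 counts per sample. Hoxa13 had 0.0476, 0.0355 and 0.00877 RPKM in the same order, from at most 4 counts per sample. The 9 other measured genes of the list of neighbours were all tested, and 1 was called higher and 1 lower at each dose. Of all 15143 genes tested, 681 were called higher and 538 lower at 25 nM RA, and 1293 higher and 1690 lower at 1 µM RA. The neighbours called were named after their values were seen. Skap2, an adaptor protein gene, rose by 0.47 on the log2 scale at both doses (adjusted p = 1.62e-07 and 9.31e-08, edgeR), and Evx1, a homeobox gene beyond the 5' end of the cluster, fell by 0.70 at 25 nM RA (adjusted p = 4.56e-26, edgeR) and by 0.86 at 1 µM RA (adjusted p = 6.33e-39, edgeR). The changes of these neighbours were thus smaller than those of the 4 members called.

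**Figure D3:**
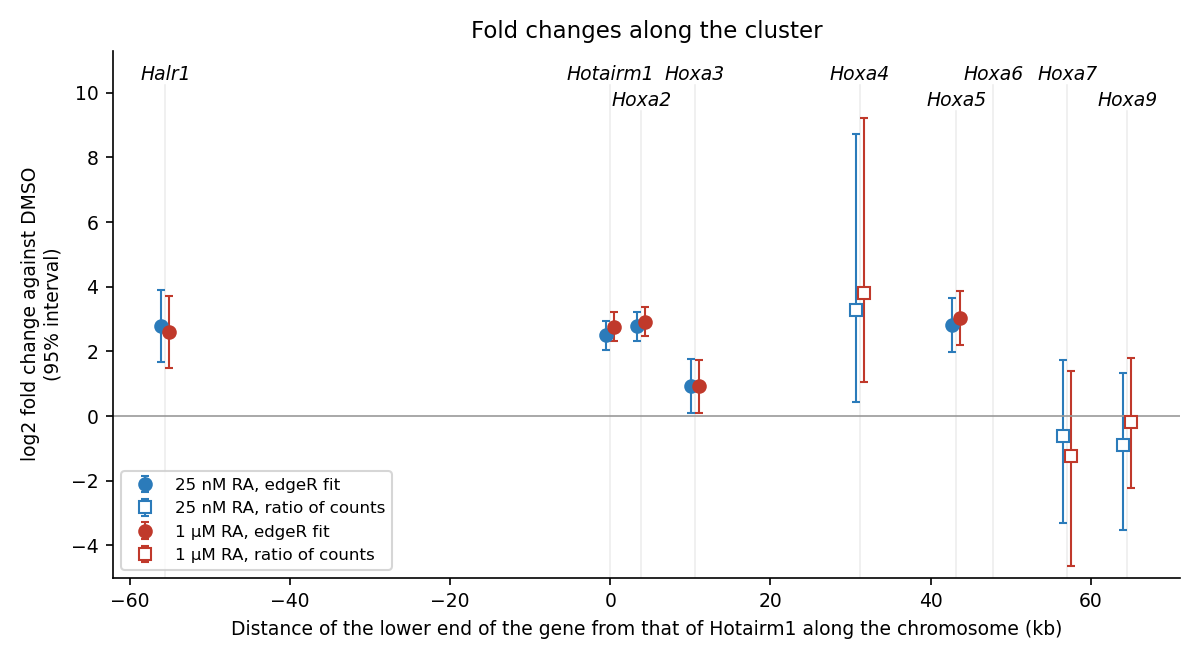
Log2 fold change against DMSO (vertical axis) with its 95% interval for each member, placed by the distance in kb of its lower chromosomal end from that of Hotairm1 (horizontal axis), for 25 nM RA (blue) and 1 µM RA (red). Filled circles are edgeR fits and open squares are ratios of summed counts with counting intervals only; Hoxa6, with 0 control counts, has no point, and the 4 members called stand between 2.50 and 3.05.

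The order of the levels changed little with RA. Hotairm1, Hoxa2, Halr1, Hoxa5 and Hoxa3 held the first 5 places in this order in all 3 groups. Hotairm1 held 77.7% of the members' summed RPKM with 25 nM RA and 79.9% with 1 µM RA. Without Hotairm1 the summed RPKM of the other members was 0.698 and 0.644 in DMSO, 4.12 and 4.03 at 25 nM and 4.302 and 4.300 at 1 µM. With RA, Hoxa2 stood above Halr1, and Hoxa5 above Hoxa3, with no overlap of samples in either dose group. Halr1 and Hoxa5 did not overlap with 25 nM RA but did with 1 µM RA. Hoxa4 came sixth in both RA groups, and it overlapped Hoxa6 with 25 nM RA. Hoxa6, Hoxa7 and Hoxa9 overlapped in both RA groups, so that their order there is not resolved.

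The higher dose was compared with the lower dose directly, a contrast that does not use the controls. Of the 5 members tested 0 were called by the edgeR likelihood ratio test or by the quasi-likelihood test, and 0 had an unadjusted p under 0.05, where 3.41% of all genes tested were called in either direction. DESeq2 gave an adjusted p for Hotairm1 alone (0.844), and none for the other 4 members. Hotairm1 had the lowest unadjusted p, 0.0758, with a log2 difference of 0.27 (95% interval -0.03 to 0.57, adjusted p = 0.455, edgeR). Without RA 1 µM replicate 2 this difference became 0.47, and without RA 1 µM replicate 1 it became 0.042, so its size depended on single samples. Hoxa2 differed by 0.14 (-0.11 to 0.39, adjusted p = 0.693, edgeR), although its samples at the 2 doses did not overlap.

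The other intervals were wider. Halr1 differed by -0.19 (95% interval -0.82 to 0.45, adjusted p = 0.862, edgeR), Hoxa3 by -0.01 (-0.72 to 0.69, adjusted p = 0.994, edgeR) and Hoxa5 by 0.23 (-0.29 to 0.75, adjusted p = 0.777, edgeR). These intervals do not show that the doses acted alike. For Hotairm1 and Hoxa2 they leave room for a level up to 1.49 and 1.31 times as high at the higher dose.

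**Figure D4:**
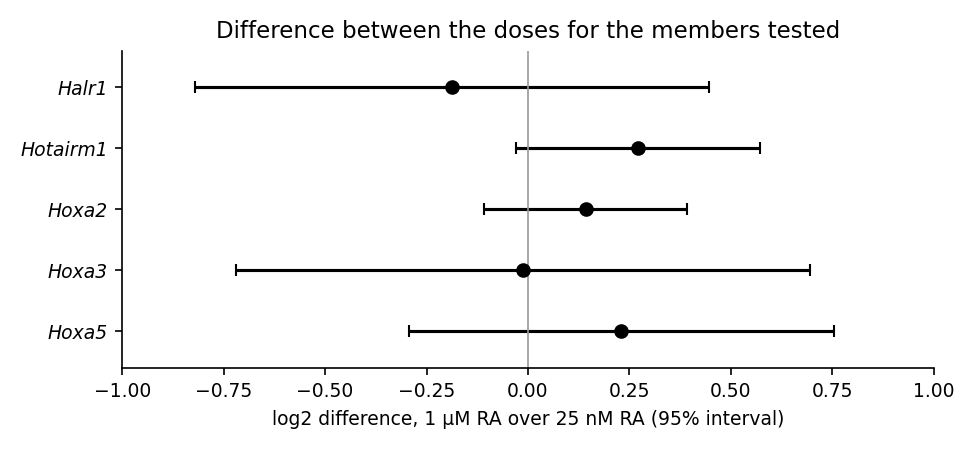
Log2 difference of 1 µM RA over 25 nM RA (horizontal axis) with its 95% interval for the 5 members tested (rows). Each interval contains 0; those of Hotairm1 and Hoxa2 are the narrowest and those of Halr1 and Hoxa3 the widest.

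Fewer members passed the study's thresholds for strongly altered genes, which also ask for a level, taken here as the mean of the RA-treated samples. Beside a call, they required the log2 fold change to exceed 1 and the RA-treated mean to exceed 1 RPKM. Halr1, Hotairm1 and Hoxa2 passed them at 25 nM RA, as did 0.442% of all genes tested, and Hotairm1 and Hoxa2 passed at 1 µM RA, as did 0.568%. Halr1 missed at 1 µM RA with a mean of 0.966 ± 0.428 RPKM (SD, n = 2), and it passed without RA 1 µM replicate 1. Hoxa5 missed at both doses on its level alone, with means of 0.648 ± 0.0344 and 0.764 ± 0.309 RPKM.

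Among the other Hox clusters, 5 of the 11 measured HoxB genes were tested, and 4 of them were called higher at both doses. Over all genes tested, 4.5% were called higher at 25 nM and 8.54% at 1 µM. Hoxb4 rose by 2.28 and 2.64 on the log2 scale (adjusted p = 2.98e-04 and 1.73e-06, edgeR) and Hoxb2 by 1.26 and 1.44 (adjusted p = 4.48e-33 and 1.90e-45, edgeR). The median of the 5 tested HoxB genes was 1.1 at the lower and 1.16 at the higher dose. Hoxb4 had only 0.0382 RPKM in DMSO, beside 0.194 at 25 nM and 0.241 at 1 µM RA. The filter used the RA samples too, so genes that rose were more readily tested. The share called and this median are thus no test of the HoxB genes as a set. Of the 10 HoxC genes measured 0 were tested, and of the 8 HoxD genes measured 2 were tested and 0 called at either dose. Most of the HoxC and HoxD genes thus stayed under the filter on low counts, like the 5' members of HoxA.

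Among 9 TALE homeodomain genes, whose proteins bind DNA together with HOX proteins, 2 were called higher and 1 lower at 25 nM RA, and 3 higher and 1 lower at 1 µM RA. Meis2, which encodes a MEIS cofactor, went from 0.874 RPKM in DMSO to 4.95 and 6.61 RPKM, a rise of 2.49 and 2.89 on the log2 scale (adjusted p = 1.01e-159 and 2.99e-228, edgeR). Among 11 tested regulators of Hox genes, 3 were called higher and 1 lower at 25 nM RA, and 2 higher and 2 lower at 1 µM RA. Of all 15143 genes tested, 681 were called higher and 538 lower at 25 nM RA, and 1293 higher and 1690 lower at 1 µM RA. The few calls in these lists were not tested against those shares. Cdx1, a caudal homeobox gene that acts on Hox genes, rose by 1.77 and 1.94 (adjusted p = 5.85e-95 and 1.16e-114, edgeR), and Gbx2, a homeobox gene of the anterior hindbrain, by 3.13 and 3.66. The called members rose more than Cdx1 and less than Gbx2 at both doses in point estimate, and these differences were not tested.

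Of 16 genes for RA receptors and RA metabolism, all of them tested, 9 were called higher and 1 lower at 25 nM RA, and 9 higher and 2 lower at 1 µM RA. The share of all genes tested that was called higher was 4.5% at the lower and 8.54% at the higher dose. Rarb, an RA receptor gene, rose by 4.53 and 4.89, and Dhrs3, which encodes a retinaldehyde reductase, by 4.91 and 5.57. Rara, which encodes another receptor, rose by 1.55 and 1.64, and Cyp26a1, whose enzyme degrades RA, by 1.76 and 2.40. Cyp26c1 (1.37 and 1.69) and Stra6, a retinol transporter gene (1.12 and 1.42), also passed. The medians over the 16 genes were 0.27 and 0.28.

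The genes most like each called member were taken by Pearson's r over the 6 samples in log2(RPKM + 0.1), among 11093 genes with a mean of at least 1 RPKM. They were Grin2c, Rhoc and 2310030G06Rik for Halr1, Vezf1, Fam101b and Grasp for Hotairm1, Csn3, Wnt8a and Sh2d5 for Hoxa2, and Tmem181b-ps, Igtp and Fra10ac1 for Hoxa5, with r from 0.993 to 0.999. With 6 samples in 3 groups, such a value mostly describes a shared step from DMSO to RA. The steps differed in size: Csn3 went from 0.00740 RPKM in DMSO to 1.95 and 2.48 RPKM, while Vezf1 went from 8.73 to 10.5 and 10.8 RPKM.

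The cells carried the defining NMP markers in all groups. Across the 6 NMP markers the summed level was 484 to 496 RPKM in DMSO, 529 to 542 with 25 nM RA and 518 to 536 with 1 µM RA, with T at 375 RPKM in DMSO and at 25 nM and 370.2 RPKM at 1 µM, and Sox2 at 5.20, 15.4 and 16.3 RPKM. Within this list Nkx1-2 stood at 39.1, 79.5 and 77.7 RPKM in DMSO, 25 nM and 1 µM RA and Fgf8 at 58.3, 50.7 and 49.0 RPKM, so that the sum hides shifts in both directions. Pou5f1, a gene of pluripotent cells, was also high, at 445, 452 and 457 RPKM. Of the hindbrain list, where Hoxa2 is also used, 3 of 4 markers were measured, and they summed to 1.05 to 1.20, 0.803 to 0.837 and 0.588 to 0.609 RPKM, so that these markers were lower where Hoxa2 was higher. The 6 markers of committed neural cells summed to 0.902 to 1.01, 0.960 to 1.13 and 1.13 to 1.24 RPKM, with Neurog1 at 0 in both 1 µM samples. Hes5 had 0.317, 0.424 and 0.629 RPKM, while Sox1 (0.237, 0.198 and 0.199 RPKM) and Neurod1 (0.303, 0.296 and 0.257 RPKM) were lower with RA. The 5 presomitic and paraxial mesoderm markers summed to 38.5 to 38.8, 30.3 to 33.4 and 26.3 to 28.5 RPKM, and the 5 endoderm markers to 52.3 to 53.3, 40.5 to 40.8 and 39.1 to 41.0 RPKM. Of the mesoderm markers Msgn1 (27.4, 19.5 and 14.8 RPKM) and Tbx6 (8.59, 6.68 and 5.92 RPKM) were lower with RA, and the other 3, Meox1 (0.102, 0.386 and 0.662 RPKM), Tcf15 (1.66, 4.07 and 4.43 RPKM) and Foxc2 (0.907, 1.24 and 1.61 RPKM), were higher. The 7 pluripotent markers summed to 460 to 496 RPKM and the 4 extraembryonic ones to 5.19 to 6.61 RPKM over all samples. Nearly all of the extraembryonic sum was Cdx2 (5.09, 6.04 and 5.19 RPKM), which is also in the NMP list. Elf5, Afp and Ttr each stayed at or below 0.447 RPKM in every sample. The part of these shifts in the HoxA values was not tested.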

How the data were processed

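NMPs were treated for 2 h with DMSO, 25 nM RA or 1 µM RA, and grouped by the sample labels. Reads of 50 bp were mapped by the authors to mm10, and an expectation-maximization procedure estimated the abundance of each transcript (TopHat2 2.0.13, Bowtie2 2.2.5.0, FastQC 0.11 and Partek 6.6 per the submitters' processing notes). The deposited estimated counts of 30352 RefSeq transcripts are not normalized, and reads compatible with several transcripts are divided among them. The authors' RPKM values divide by transcript length and mapped reads. They served for levels, for thresholds on a level and for Pearson's r between genes, and not for the fits.

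Estimated counts were summed per gene, rounded and fitted in edgeR 4.0.16 (R 4.3.3) with TMM factors (0.989 to 1.01), filterByExpr, 1 coefficient per group for all 6 samples and the likelihood ratio test, which left 15143 genes and a common biological coefficient of variation of 0.0351. Intervals are the estimate ± 1.96 SE. Duplicates differed by a chi-square per gene with a median of 0.837 to 1.02 and a mean of 3.82 to 5.88, so that they were separate libraries that differed beyond counting error. Members under the filter were given as exact ratios of counts. The members and gene lists were chosen with earlier results of these data known. Called genes named from the lists, as examples for HoxB, were among those called at both doses with at least a 2-fold change at one of them. The neighbours Skap2 and Evx1 were exceptions, called at both doses with smaller changes and named after their values were seen. Some genes of the cluster are not reported here. Alternatives were the quasi-likelihood test, DESeq2 1.42.0, other normalizations, filters and thresholds, transcripts, a replicate block, only the samples compared, and leaving out each sample. Fits were tested on simulated data. Tables used pandas 2.3.3, numpy 2.4.6 and scipy 1.17.1 under Python 3.11.15, and figures matplotlib 3.10.9.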

Additional observations from a re-analysis of the deposited data

How the results depend on the processing

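The rises of Hotairm1, Hoxa2 and Hoxa5 at both doses and of Halr1 at 25 nM RA were called under all alternatives run that could test them, and that of Halr1 at 1 µM RA under all but DESeq2, which gave no adjusted p. With a mean of at least 50 counts only Hotairm1 and Hoxa2 were tested, so that 2 members were called at each dose. The adjusted p-values of the called members were much larger under the quasi-likelihood test than under the likelihood ratio test. At 25 nM RA the quasi-likelihood test gave 2.03e-08 for Hoxa2, 3.45e-07 for Hotairm1, 1.36e-04 for Hoxa5 and 0.00125 for Halr1. Over all genes, DESeq2 called 567, 1594 and 158 at 25 nM, at 1 µM and between the doses, where the likelihood ratio test called 1219, 2983 and 516. The quasi-likelihood test called 336 between the doses, an adjusted p under 0.05 left 340, and a fit of transcripts called 1833 at 1 µM; the cause was not tested. Leaving out 1 sample gave 799 to 1345, 1922 to 2839 and 205 to 577 genes, and 0 to 1 members between the doses, the 1 being Hotairm1. The lowest counts came without RA 25 nM replicate 2 (799), without DMSO replicate 2 (800 at 25 nM, 1922 at 1 µM), without DMSO replicate 1 (1960 at 1 µM) and without RA 25 nM replicates 1 and 2 in turn (205 and 247 between the doses). The uncalled differences between the doses turned direction for Halr1 (-0.72 to 0.19), for Hoxa3 (-0.082 to 0.049, with 0.0032 without RA 25 nM replicate 2) and for Hoxa5 (-0.27 to 0.60).

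The labels number the samples 1 and 2 in each group, but deviations of same-numbered samples from their group means correlated at only -0.0409, 0.0484 and -0.0615 over genes, so that they share only a number. With the replicate block, 1138, 2756 and 423 genes and 4, 4 and 0 members were called. Depth limits Hoxa4, Hoxa6, Hoxa7 and Hoxa9, which stayed under the filter.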
